A study of Mus musculus with 6 samples.

Results

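Pancreatic islets hold, beside the insulin-producing beta cells, several other endocrine cell types that each make their own peptide hormone, and the 9 genes described here mark those types. They are 5 hormone genes, Gcg, Sst, Ppy, Pyy and Ghrl, and 4 homeobox transcription factor genes of alpha and delta cells, Irx1, Irx2, Hhex and Pou3f4, taken by symbol from the 54532 genes of the deposited table. All 9 were found, once each. The libraries were poly(A) RNA of whole islets from mice aged 7 weeks. The 3 bKO libraries came from Ythdc1-betaKO mice, in which Ythdc1, the gene of a nuclear reader of N6-methyladenosine in RNA, is deleted in beta cells as the label has it, and the 3 control libraries from Ythdc1flox/flox mice, which carry the floxed allele. The libraries of a group were independent biological replicates per the design text. Which promoter drives the recombinase is not given in the sources used here, and the deletion is labelled for beta cells, while the 9 genes are mainly known from the other cells of the islet.

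Alpha cells secrete glucagon, which raises blood glucose, and Gcg encodes its precursor. Delta cells secrete somatostatin, encoded by Sst, which acts locally to restrain both insulin and glucagon release. PP cells, also called gamma cells, secrete pancreatic polypeptide (Ppy), and peptide YY (Pyy) is its close relative in the neuropeptide Y family, found in PP cells and in some other islet and gut endocrine cells. Ghrelin, encoded by Ghrl, is made by rare epsilon cells in the islet and mostly by the stomach. Irx1, Irx2 and Pou3f4 (also called Brn4) are transcription factors enriched in alpha cells, and Hhex is required for the delta cell state in mice. PP cells are most frequent in the part of the pancreas that forms from the ventral bud, so their number per islet varies with the region of the gland.

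Ppy and Pyy lie side by side on chromosome 11 (GRCm38) on the minus strand, Ppy at 102099930 to 102101319 and Pyy at 102106676 to 102107832, with 5356 bases between them. Both had higher mRNA in bKO islets, while Gcg and Sst did not pass the test, so the 250 bases before the transcript start of these 4 hormone genes are shown for comparison, from RefSeq on GRCm38.p6 and read 5' to 3' on the gene's strand. Of the 9 genes 8 had an entry in the RefSeq table, all but Irx1. The starts used for Ppy and Pyy are those of the deposited table, and RefSeq gives Pyy a second start at 102107776, which lies 83 bases after the first base of the same TATAA. The RefSeq starts of Sst and Gcg differ from the table, and the Sst window reaches into the gene as the deposited table bounds it. Capitals mark TATAA, the core of a TATA box, and TGACGTCA, the cAMP response element, wherever they occur in the strand shown. The windows are chr11:102101320-102101569 for Ppy, chr11:102107833-102108082 for Pyy, chr16:23890845-23891094 for Sst and chr2:62483654-62483903 for Gcg, all on the minus strand.
Ppy: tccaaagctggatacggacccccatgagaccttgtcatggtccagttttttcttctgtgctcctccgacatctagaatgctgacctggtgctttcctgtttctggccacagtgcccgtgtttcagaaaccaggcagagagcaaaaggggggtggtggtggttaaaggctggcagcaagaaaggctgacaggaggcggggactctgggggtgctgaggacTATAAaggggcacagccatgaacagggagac
Pyy: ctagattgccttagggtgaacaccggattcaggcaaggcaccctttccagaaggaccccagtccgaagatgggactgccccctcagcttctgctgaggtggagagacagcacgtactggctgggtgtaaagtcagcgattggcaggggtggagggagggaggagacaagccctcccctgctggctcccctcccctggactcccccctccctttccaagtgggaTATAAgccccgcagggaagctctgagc
Sst: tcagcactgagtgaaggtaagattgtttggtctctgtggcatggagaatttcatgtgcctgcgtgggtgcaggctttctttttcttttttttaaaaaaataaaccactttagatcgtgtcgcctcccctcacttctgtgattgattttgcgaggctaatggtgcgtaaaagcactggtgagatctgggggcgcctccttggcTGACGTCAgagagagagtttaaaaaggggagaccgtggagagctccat
Gcg: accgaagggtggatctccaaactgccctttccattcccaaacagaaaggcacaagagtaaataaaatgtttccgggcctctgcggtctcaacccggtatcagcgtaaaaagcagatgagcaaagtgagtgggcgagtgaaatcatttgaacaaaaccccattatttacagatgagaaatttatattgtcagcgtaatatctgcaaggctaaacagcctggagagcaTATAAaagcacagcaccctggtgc

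TATAA began 31 bases before the start of Ppy, 27 bases before that of Pyy and 24 bases before that of Gcg. TATAA stood in 16.0% of the 32817 promoter windows of the same length in the given strand and in 22.8% in either strand, and the Gcg window also held it once in the opposite strand, 71 bases before the start. TGACGTCA reads the same in both strands. It began 48 bases before the start of Sst, where it is the classical element through which cAMP is known to act on this gene, and stood in 1.55% of all windows. TAAT, the core that homeodomain proteins bind, was searched in both strands without capitals. It stood once in the Sst window and in each strand of the Gcg window, against 54.9% of all windows, and these letters were not in the Ppy and Pyy windows shown. None of these motifs overlapped another in the 4 windows. G and C made up 55.2% of the Ppy window and 61.2% of the Pyy window, against 47.2% for Sst, 44.8% for Gcg and a median of 52.4% over all windows.

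The 6 libraries held 16863329 to 18240339 reads assigned to genes. The first principal component, with 49.9% of the variance, separated the groups, and control replicate 3 stood apart from the other 2 control libraries on the second. The gene Ythdc1 averaged 3.82 ± 0.041 FPKM in bKO and 6.13 ± 0.35 FPKM in control islets (SD, n = 3 each), where FPKM stands for fragments per kilobase after the authors' scaling of each library, and it fell by 0.56 in log2(FPKM + 1) (SE 0.058, limma adjusted p = 0.0014). Genes were compared with limma on log2(FPKM + 1) over 15717 genes, with an adjusted p under 0.05 as the threshold, and fold changes on that scale understate those of low genes. Of these genes 20.3% were called, 8.96% higher and 11.4% lower in bKO. Of the called genes 44.1% were thus higher in bKO, against 83.4% when libraries were scaled by their totals. All 9 genes described here passed the filter, with at least 0.5 FPKM in all 6 libraries.

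Of the 9 genes, 3 rose in bKO islets (Ppy, Pyy and Irx2) and 0 fell, against the 8.96% and 11.4% of all genes just given. At an unadjusted p under 0.05 the number was 5, all higher in bKO, which adds Hhex and Ghrl, while 34.7% of all tested genes passed that limit in either direction and 15.7% as higher. In 6 of the 9 genes every bKO library was above every control library, in 0 every bKO library was below, and in 3 the groups overlapped, while 18.5% of all tested genes had such a separation upward and 40.1% had one in either direction. The median difference of the 9 genes was 0.33 in log2(FPKM + 1), and that of all tested genes was -0.01. The scaling bears on this: insulin mRNA (Ins1 and Ins2) took 15.6% ± 0.51 of the reads in bKO and 22.5% ± 0.82 in control, and with libraries scaled by their total in place of the authors' factors the median of all genes moved to 0.13 and 6 of the 9 genes were called higher. All islets here were bulk samples, so more cells of a type and more RNA per cell cannot be told apart, nor fewer cells and less RNA.

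**Figure D1:**
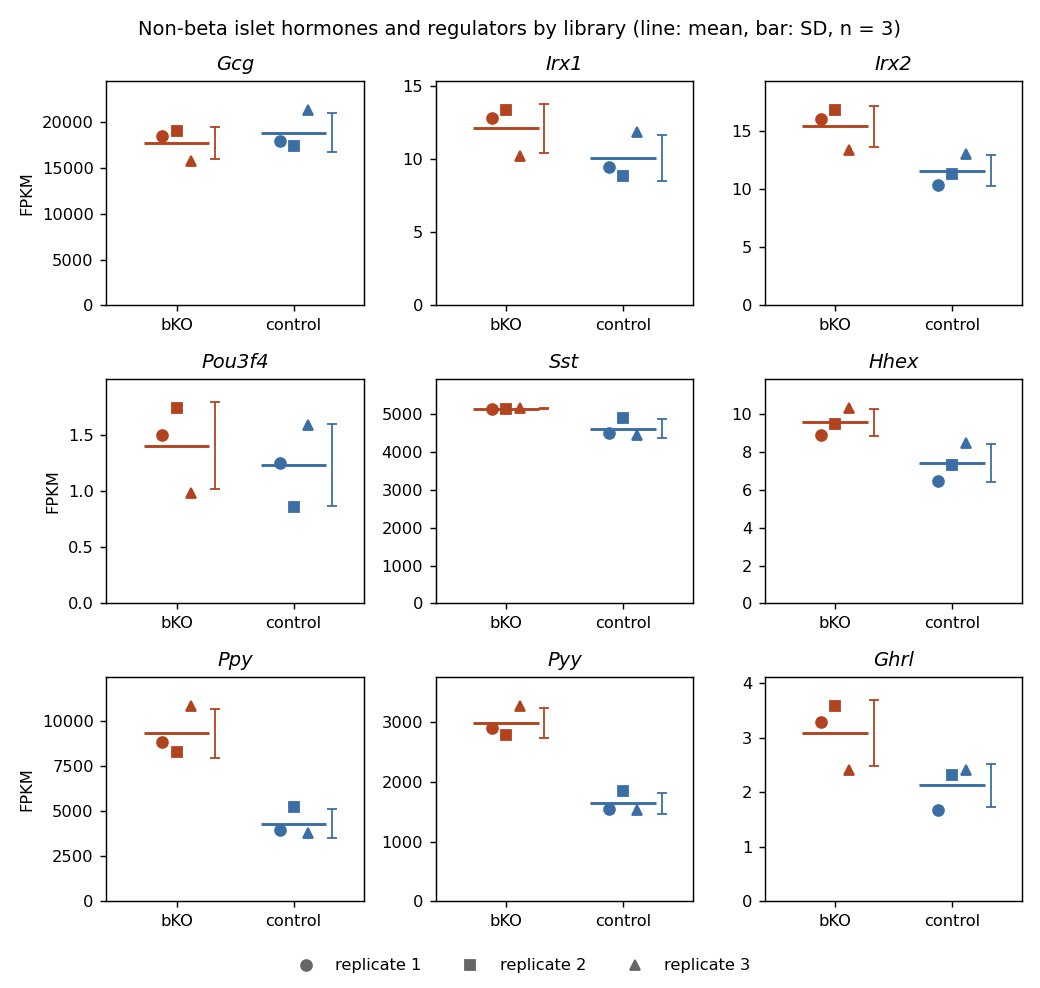
FPKM (vertical axes, from 0) of each of the 9 genes in the 3 bKO and the 3 control libraries, with the group mean as a line and the SD as a bar beside the points. For Ppy and Pyy the lowest bKO library, at 8292 and 2779 FPKM, stands well above the highest control library, at 5226 and 1836 FPKM, while the groups overlap for Gcg, Irx1 and Pou3f4.

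Ppy, pancreatic polypeptide, had the largest difference of the 9 genes on the log2(FPKM + 1) scale. It had 8855, 8292 and 10843 FPKM in bKO replicates 1, 2 and 3, against 3939, 5226 and 3808 FPKM in control replicates 1, 2 and 3. The groups did not overlap, and the highest bKO library was replicate 3 and the highest control library replicate 2. The means were 9330 ± 1340 FPKM in bKO and 4324 ± 784 FPKM in control (SD, n = 3 each), a ratio of 2.16, and the difference was 1.11 in log2(FPKM + 1) (SE 0.16, limma adjusted p = 0.0044). Between 75151 and 100236 reads lay behind the bKO values and between 30851 and 45028 behind the control values, so counting error was small beside the spread between libraries. It was called in 14 of 15 settings and not with no filter on low values (limma adjusted p = 0.15).

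Pyy, peptide YY, moved with it. It had 2893, 2779 and 3259 FPKM in bKO replicates 1, 2 and 3, against 1542, 1836 and 1528 FPKM in control replicates 1, 2 and 3. Replicate 3 was again the highest of the bKO libraries and replicate 2 of the control libraries. The difference was 0.87 in log2(FPKM + 1) (SE 0.097, limma adjusted p = 0.0019), a ratio of means of 1.82, and it was called in all 15 settings. Ppy exceeded Pyy in every library, by 3.06, 2.98 and 3.33 times in bKO and by 2.55, 2.85 and 2.49 times in control. The ratio was therefore higher in each bKO library, by 1.19-fold on average (two-sided exact permutation p = 0.1, below which 3 against 3 libraries cannot go).

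The third mammalian member of this peptide family, Npy (neuropeptide Y), was measured as well, though far lower and not among the 9 genes. It had 7.36, 11.5 and 8.12 FPKM in bKO, against 2.19, 0.615 and 0.327 FPKM in control replicates 1, 2 and 3, and rose by 2.37 in log2(FPKM + 1) (SE 0.33, limma adjusted p = 0.0041). Its values rest on 80, 118 and 85 reads in bKO and on only 20, 6 and 3 reads in control. The groups did not overlap, and control replicate 1 was well above the other 2 control libraries. In the list of PP- and epsilon-cell genes 3 of 4 measured genes thus rose (Ppy, Pyy and Npy) and 0 fell. Of all tested genes 8.96% were called higher. The list median was 0.99 against -0.01 over all genes. Ppy, Pyy and Ghrl are among the 9 genes, so Npy is the only measured gene that this list adds. It also holds the ghrelin acylating enzyme gene Mboat4, which was below the filter. In the list of peptide relatives (Npy, Cort, Gip, Cck, Gast, Sct and Nts) 2 genes were measured, and only Npy was called.

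Around the Ppy and Pyy pair, the genes within 50 kb were examined for position, a choice made after the values were seen. Mpp2, a membrane scaffold gene 11415 bases from Ppy, had 9.09, 10.3 and 10.6 FPKM in bKO, against 8.29, 7.80 and 7.38 FPKM in control, and rose by 0.32 in log2(FPKM + 1) (limma adjusted p = 0.023), a call lost without bKO replicate 2 or 3 or control replicate 2 or 3. Cd300lg, 44310 bases from Ppy, rose by 0.30 (limma adjusted p = 0.045), a call lost without any 1 of 5 libraries, control replicate 2 being the exception. Tmem101, 44714 bases from Pyy on the other side, was at 9.10 ± 0.96 FPKM in bKO and 9.63 ± 1.8 FPKM in control (limma adjusted p = 0.76).

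Glucagon mRNA, the highest of the 9 in FPKM in every library, did not pass the test. Gcg (chromosome 2, 62474530 to 62483650) had 18430, 18980 and 15762 FPKM in bKO replicates 1, 2 and 3, against 17906, 17343 and 21260 FPKM in control replicates 1, 2 and 3. The groups overlapped, since the lowest library was bKO replicate 3 and the highest control replicate 3. The means were 17724 ± 1721 FPKM in bKO and 18836 ± 2118 FPKM in control, and the difference was -0.09 in log2(FPKM + 1) (SE 0.13, limma adjusted p = 0.69). Its sign depended on the scaling and on 1 library: it was 0.090 when scaled by library totals and 0.0036 without control replicate 3, and no setting called it.

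The alpha-cell transcription factors were each low in FPKM beside the hormone. Irx2 (chromosome 13, 72628820 to 72634198) had 16.0, 16.8 and 13.4 FPKM in bKO replicates 1, 2 and 3, against 10.4, 11.4 and 13.1 FPKM in control replicates 1, 2 and 3. The groups were separate, though narrowly, with bKO replicate 3 just above control replicate 3. The means were 15.4 ± 1.8 FPKM in bKO and 11.6 ± 1.3 FPKM in control, and Irx2 rose by 0.38 in log2(FPKM + 1) (SE 0.10, limma adjusted p = 0.044). This call was lost in 6 of the 14 alternative settings, among them without bKO replicate 1 or 2 (0.35 and 0.32, limma adjusted p = 0.13 and 0.12) and without control replicate 1 or 2 (0.31 and 0.37, limma adjusted p = 0.12 and 0.11).

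Irx1, which lies on chromosome 13 with Irx2, 665096 bases away, had 12.8, 13.4 and 10.2 FPKM in bKO replicates 1, 2 and 3, against 9.46, 8.88 and 11.9 FPKM in control replicates 1, 2 and 3. Its groups overlapped, and the difference of 0.25 in log2(FPKM + 1) did not pass the test (SE 0.13, limma adjusted p = 0.23). Pou3f4 (chromosome X) had 1.49, 1.73 and 0.979 FPKM in bKO, against 1.25, 0.852 and 1.58 FPKM in control. These values rest on 53 to 92 reads in bKO and 43 to 75 reads in control, and the difference was 0.11 (SE 0.17, limma adjusted p = 0.69), or -0.018 without control replicate 2. Gm20554, an RNA gene annotated as lincRNA that begins 256 bases from Irx2 on the opposite strand, averaged 4.69 ± 0.49 FPKM in bKO and 3.14 ± 0.25 FPKM in control and rose by 0.46 (limma adjusted p = 0.011), called in all 15 settings. Of the other 7 genes of the Iroquois and POU3 families, Irx3, at most 0.76 FPKM, was the highest, and 0 passed the filter.

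Set against glucagon mRNA in the same library, a measure that does not depend on how libraries are scaled and that was added after the values were seen, both Iroquois genes stood higher in bKO. Irx2 had 0.870, 0.886 and 0.851 FPKM per 1000 FPKM of Gcg in bKO, against 0.581, 0.655 and 0.615 in control. Irx1 had 0.696, 0.703 and 0.647 FPKM per 1000 FPKM of Gcg in bKO, against 0.528, 0.512 and 0.558 in control. Neither ratio overlapped between the groups, which held upward for 17.4% of all tested genes set against Gcg. The libraries of a group also lay closer together on this measure than in FPKM, with means of 0.869 ± 0.017 in bKO and 0.617 ± 0.037 in control for Irx2. For Pou3f4 the same ratio overlapped, at 0.0782 ± 0.015 in bKO and 0.0645 ± 0.013 in control.

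Of 15 alpha-cell genes listed, 13 were measured, and 3 rose and 1 fell, with a median of 0.06 against -0.01 over all genes. Over all tested genes 8.96% were called higher and 11.4% lower. Gc, the vitamin D binding protein made by alpha cells in the islet, had 97.0, 98.1 and 121 FPKM in bKO, against 43.4, 48.9 and 43.4 FPKM in control, a ratio of 2.33 (limma adjusted p = 0.00056). Within the groups Gc was highest in bKO replicate 3 and control replicate 2, as Ppy was, while Gcg was lowest in those libraries. Etv1, an ETS transcription factor gene, rose by 0.48 in log2(FPKM + 1), and the arginine transporter gene Slc7a2 fell by 0.54 (limma adjusted p = 0.0014 and 0.0024), and Gc, Etv1 and Slc7a2 were called in all 15 settings. The alpha-cell genes thus did not share 1 direction.

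Somatostatin mRNA was slightly higher in every bKO library without passing the test. Sst (chromosome 16, 23889573 to 23890958) had 5142, 5148 and 5162 FPKM in bKO replicates 1, 2 and 3, against 4495, 4916 and 4452 FPKM in control replicates 1, 2 and 3. The bKO libraries were nearly level, and the groups did not overlap. The means were 5151 ± 10.3 FPKM in bKO and 4621 ± 256 FPKM in control, and the difference was 0.16 in log2(FPKM + 1) (SE 0.069, limma adjusted p = 0.16). It was called in 2 of the 15 settings, on scaling by library totals (0.33, limma adjusted p = 0.0099) and with voom on the recovered reads (0.16, limma adjusted p = 0.00091).

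Hhex (chromosome 19, 37434810 to 37440731), the delta-cell factor, had 8.90, 9.46 and 10.3 FPKM in bKO replicates 1, 2 and 3, against 6.44, 7.29 and 8.46 FPKM in control replicates 1, 2 and 3. The groups did not overlap, with 328 to 365 reads in bKO and 199 to 263 reads in control. The difference of 0.33 in log2(FPKM + 1) (SE 0.096, limma adjusted p = 0.052) fell just short of the threshold, and 6 of the 14 alternative settings called it, among them the fit without control replicate 3 (0.42, limma adjusted p = 0.021). Set against Sst in the same library, Hhex overlapped between groups, at 1.73, 1.84 and 1.99 FPKM per 1000 FPKM of Sst in bKO and 1.43, 1.48 and 1.90 in control. Set against Sst, 9.55% of all tested genes were separate upward. Of 7 delta-cell genes 5 were measured, and 0 rose and 0 fell in the main fit, with a median of 0.14. Scaling by library totals and voom each called 2 higher, and some other limma settings called 1, such as that without control replicate 3. At an unadjusted p under 0.05 the delta-cell genes were Hhex, higher in bKO, and Rbp4 and Ffar4, both lower in bKO, or 3 of 5 against the 34.7% of all genes. Rbp4, a retinol carrier abundant in delta cells, averaged 106 ± 1.3 FPKM in bKO and 113 ± 1.3 FPKM in control, and the ghrelin receptor gene Ghsr 2.22 ± 0.34 FPKM in bKO and 1.92 ± 0.12 FPKM in control.

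Ghrelin mRNA rested on few reads. Ghrl had 3.28, 3.58 and 2.41 FPKM in bKO, against 1.67, 2.31 and 2.40 FPKM in control replicates 1, 2 and 3. These stand for 68, 70 and 48 reads in bKO and 29, 43 and 42 reads in control, and the lowest bKO library was all but level with the highest control library. The difference of 0.38 in log2(FPKM + 1) did not pass the test (SE 0.14, limma adjusted p = 0.11), and was called in 1 setting, on scaling by library totals (0.51, limma adjusted p = 0.042). Ghrl overlaps the annotated genes Gm26982 and Gm44033 on the opposite strand, and no strand setting of the counting was given, so reads of the pair cannot be told apart. None of the other 8 genes overlapped an annotated gene of the table.

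The order of the hormones differed between the groups in 1 place. In bKO islets Gcg was highest, then Ppy, Sst and Pyy, with no overlap between neighbours, and Ppy exceeded Sst by 1.61 to 2.10 times. In control islets Ppy and Sst overlapped, at 0.855 to 1.06 times, between Gcg above and Pyy below. A test that left aside that both were measured in the same libraries gave a two-sided exact permutation p = 0.6. Since 3 pairs cannot go below 0.25, a test by library could not decide whether they differ. Pyy exceeded Irx2, the highest of the regulators, by 165 to 243 times in bKO and 117 to 162 times in control. Irx2 and Irx1 overlapped in control, Irx1 and Hhex overlapped in bKO, and Ghrl and Pou3f4 were lowest in both groups.

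Of the summed FPKM of Gcg, Sst, Ppy and Pyy, Ppy made up 25.1%, 23.6% and 31.0% in bKO, against 14.1%, 17.8% and 12.3% in control, and Gcg made up 50.4% ± 4.7 in bKO and 63.9% ± 4.7 in control. Pyy made up 8.46% ± 0.74 in bKO and 5.57% ± 0.67 in control, and Sst 14.6% ± 0.091 in bKO and 15.7% ± 1.3 in control. Within libraries the Ppy to Gcg ratio was 0.480, 0.437 and 0.688 in bKO, against 0.220, 0.301 and 0.179 in control, a 2.30-fold difference. Ppy per Sst differed by 1.94-fold, Pyy per Gcg by 1.94-fold and Pyy per Sst by 1.63-fold, each without overlap. Of the 6 ratios among these 4 hormones 5 did not overlap, with a two-sided exact permutation p = 0.1 each (adjusted over the 6 ratios, 0.12). The exception was Sst per Gcg, which overlapped, with a 1.18-fold difference (two-sided exact permutation p = 0.3). Each of the 5 separate ratios holds Ppy or Pyy, so they restate the differences of those genes. Upward separation held for 17.4% of all tested genes set against Gcg and for 9.55% set against Sst. No such share was computed for Ppy per Pyy.

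**Figure D2:**
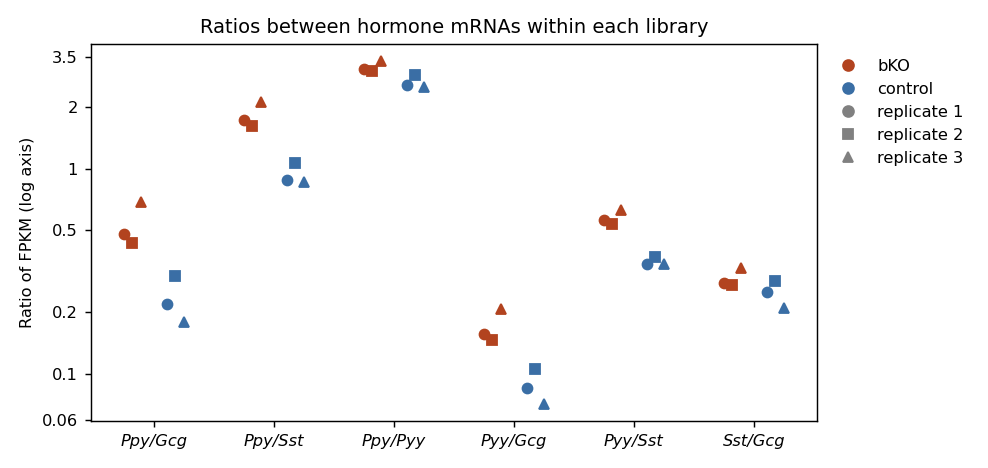
Ratio of FPKM between hormone genes within each library (vertical log axis) for the 6 pairs of Gcg, Sst, Ppy and Pyy, with bKO points left of control points. The 4 ratios of Ppy or Pyy to Gcg or Sst are separate between the groups, as is Ppy per Pyy, and Sst per Gcg overlaps.

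As a share of all reads, Ppy took 0.499% ± 0.072 in bKO and 0.204% ± 0.037 in control, and Pyy 0.201% ± 0.017 in bKO and 0.0975% ± 0.010 in control (SD, n = 3 each). Sst took 0.397% ± 0.0041 in bKO and 0.315% ± 0.018 in control, and Gcg 2.83% ± 0.27 in bKO and 2.66% ± 0.34 in control. The 5 hormones together took 3.93% ± 0.19 in bKO and 3.28% ± 0.31 in control (two-sided exact permutation p = 0.1). With insulin reads left out of the total, the sum was 4.65% ± 0.24 in bKO and 4.23% ± 0.36 in control, which overlapped (two-sided exact permutation p = 0.2), while Ppy remained separate at 0.591% ± 0.083 in bKO and 0.264% ± 0.048 in control. For Gcg the order turned round there, at 3.35% ± 0.34 in bKO and 3.43% ± 0.40 in control. With p-values adjusted over the 13 shares computed, 0 could pass, since the exact test of 3 against 3 libraries cannot go below p = 0.1.

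In replicate 3 of each group Gcg, Irx1, Irx2, Pou3f4 and Ghrl stood on the other side of their group mean from Ppy and Pyy. Sst stood on the side of Ppy and Pyy there, though it was nearly level in bKO, at 5142 to 5162 FPKM. Hhex did not keep to 1 side, since it was highest in replicate 3 of both groups. In bKO replicate 3 the alpha-cell genes Gcg, Irx1, Irx2 and Pou3f4 and also Ghrl were at their lowest of the 3 bKO libraries, while Ppy, Pyy, Sst and Hhex were at their highest. In control replicate 3 the same 5 genes and Hhex were at their highest of the 3 control libraries, and Ppy, Pyy and Sst at their lowest. The acinar (exocrine) markers varied between the same libraries: the summed FPKM of 15 such genes was 212, 191 and 145 in bKO replicates 1, 2 and 3 and 123, 74.3 and 251 in control replicates 1, 2 and 3. It was thus lowest in the bKO and the control library with the most Ppy. Each library is 1 of 3 in its group, and the part of acinar tissue or of the sampled region in the values of the 9 genes was not tested.

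**Figure D3:**
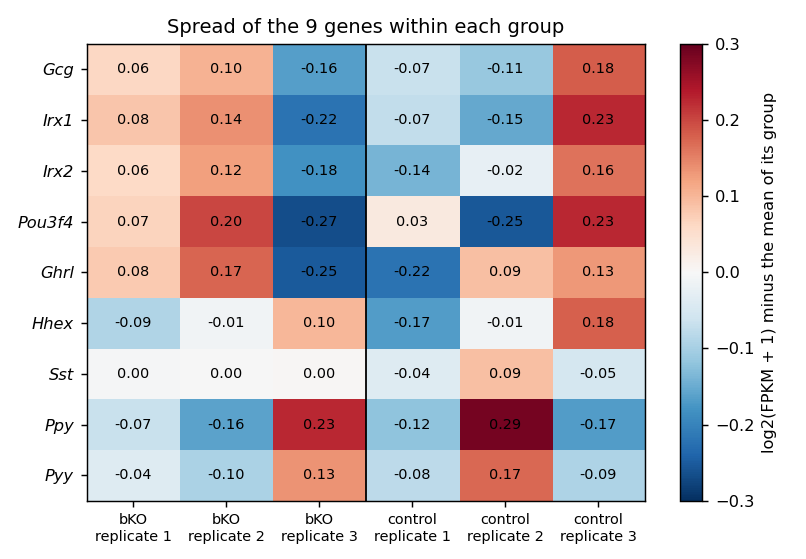
Each cell gives log2(FPKM + 1) of a gene (rows) in a library (columns) minus the mean of its own group, so differences between bKO and control are removed. Gcg, Irx1, Irx2 and Pou3f4 are below their group mean in bKO replicate 3 and above it in control replicate 3, and Ppy and Pyy show the reverse, with Ppy at 0.23 and -0.17.

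By the root mean square difference of the 6 values of log2(FPKM + 1), each centred on its gene mean, the protein-coding genes nearest to Ppy among 12059 were Zdhhc22 (0.048), Gc (0.10) and Ptp4a3 (0.13). Zdhhc22, a palmitoyltransferase family gene, averaged 7.92 ± 1.2 FPKM in bKO and 3.09 ± 0.92 FPKM in control. Nearest to Pyy were Rasl10b (0.059), Cd200 (0.069) and Il20rb (0.070), of which Cd200, a cell surface glycoprotein gene, averaged 39.0 ± 1.6 FPKM in bKO and 22.3 ± 1.6 FPKM in control. Rasl10b averaged 2.28 FPKM in bKO and 0.941 FPKM in control, and Il20rb 1.35 FPKM in bKO and 0.263 FPKM in control. At such low levels this scale understates the fold change, so their likeness to Pyy is not one of fold change. Trmt10c, Pcdhga9 and Cacng4 were nearest to Gcg, at 0.028 to 0.038, and Galnt10, Ppp1r16a and Aifm2 to Sst, at 0.016 to 0.019. With 6 libraries in 2 groups this likeness rests mainly on the group difference where there is one.

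The receptors through which these hormones and the incretins act showed falls and rises. Of 13 receptor genes 7 were measured, 1 rose and 2 fell, with a median of 0.09. Beside this, 8.96% of all tested genes were called higher and 11.4% lower. Gipr, the receptor for the gut incretin GIP, had 33.8, 32.8 and 32.0 FPKM in bKO, against 46.3, 48.7 and 49.2 FPKM in control, and fell by 0.53 in log2(FPKM + 1) (limma adjusted p = 0.00052). Glp1r, whose ligand GLP-1 is cut from the same precursor as glucagon, averaged 114 ± 6.8 FPKM in bKO and 162 ± 15 FPKM in control and fell by 0.50 (limma adjusted p = 0.006). Sstr1, a somatostatin receptor gene, was at 1.98 ± 0.15 FPKM in bKO and 1.12 ± 0.18 FPKM in control and rose by 0.49 (limma adjusted p = 0.015), a call lost without bKO replicate 1 or 3. The glucagon receptor gene Gcgr averaged 14.9 ± 0.41 FPKM in bKO and 13.9 ± 0.27 FPKM in control and was not called. The neuropeptide Y family receptors Npy1r, Npy2r, Npy4r and Npy5r were below the filter.

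**Figure D4:**
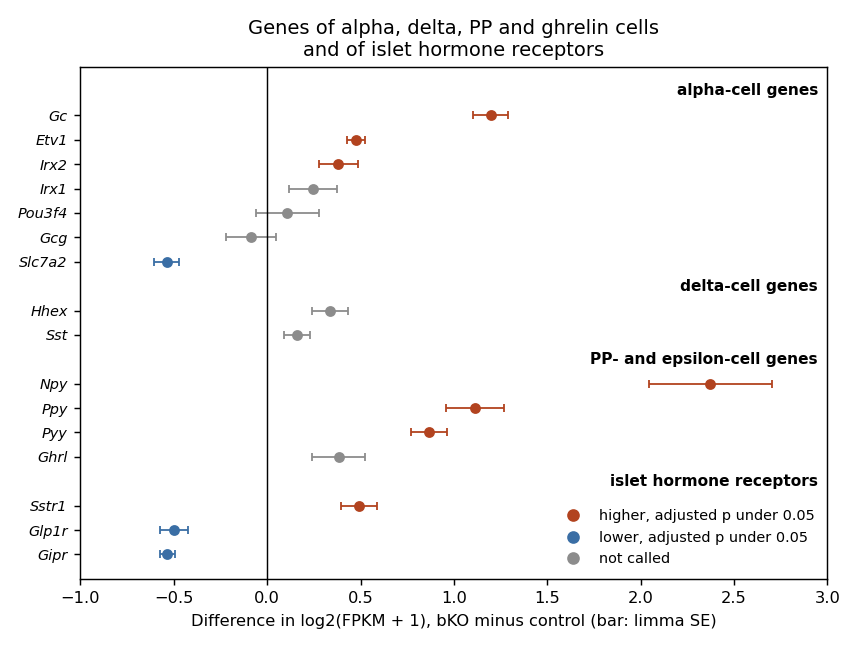
Difference in log2(FPKM + 1), bKO minus control, with its limma SE, for the 9 genes described here and the other called genes of 4 lists; other genes of the lists are not drawn. Npy, Ppy and Pyy lie at 2.37, 1.11 and 0.87, the alpha-cell genes run from Gc at the upper end to Slc7a2 at -0.54, and no delta-cell gene is called.

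Of 14 transcription factor genes shared by endocrine cell types 12 were measured, 5 fell (Pax6, Neurod1, St18, Foxa2 and Meis2) and 1 rose (Insm1), with a median of -0.18. Here too, 8.96% of all tested genes were called higher and 11.4% lower. On scaling by library totals the 5 falls were lost, and the list then had 4 genes higher and 0 lower in bKO. The call of Insm1 was also lost without bKO replicate 1 or 2 or control replicate 2 or 3, and that of Meis2 without any 1 library except control replicate 2. Of 8 precursor processing genes Pcsk1 and Scg5 fell and Pam, the peptide amidating enzyme gene, rose, with a median of -0.07. Pcsk2, the convertase that cuts glucagon from its precursor, averaged 403 ± 11 FPKM in bKO and 435 ± 17 FPKM in control and was not called. Pcsk1, the convertase of insulin and GLP-1, fell by 0.57 (limma adjusted p = 0.0004) in all 15 settings, while the calls of Scg5 and Pam were lost in 7 and 8 of the 14 alternatives.

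For the other cells of the samples, of 8 beta-cell markers 5 fell and 1 rose. Their summed level was 130927 to 140038 FPKM in bKO and 201005 to 222730 FPKM in control. Most of this sum was insulin mRNA, so it does not stand for the 8 markers alike. Ins1 averaged 34528.6 FPKM in bKO and 61085.1 FPKM in control, and Ins2 84753.5 and 134303 FPKM. Of 13 measured acinar markers 1 rose and 0 fell, with sums of 145 to 212 FPKM in bKO and 74.3 to 251 FPKM in control, and of 5 measured duct markers 0 rose and 1 fell, with sums of 64.4 to 67.5 FPKM in bKO and 66.6 to 71.0 FPKM in control. Of 8 endothelial markers 5 rose and 0 fell (194 to 198 FPKM in bKO and 150 to 173 FPKM in control), of 10 macrophage markers 0 rose and 5 fell (70.9 to 89.1 FPKM in bKO and 119 to 135 FPKM in control), and of 5 measured Schwann-cell markers 3 rose and 0 fell (5.56 to 7.02 FPKM in bKO and 2.80 to 4.68 FPKM in control). The counts of these lists stand beside 8.96% of all tested genes called higher and 11.4% called lower. They moved with single libraries. The endothelial count was 1 without bKO replicate 3, 2 or 3 without any other 1 library and 8 on scaling by library totals, and the Schwann-cell count was 1 without bKO replicate 2 or 3 or control replicate 1 or 2. The acinar count was 5 higher without control replicate 3 and 0 without any other 1 library. The macrophage count was 3 lower without bKO replicate 1 or 2 or control replicate 1 or 2, and the beta-cell count was 3 lower without bKO replicate 1. The 1 higher beta-cell call was lost without any 1 library except control replicate 1. On scaling by library totals 3 duct markers were higher. None of these marker genes was at 0 in every library. Their part in the differences of the 9 genes was not tested. The lower beta-cell sum, mostly insulin mRNA, the lower macrophage sum and the higher endothelial sum stood in every bKO library, as did the higher Ppy and Pyy.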

How the data were processed

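Poly(A) RNA of pancreatic islets was sequenced in 3 bKO and 3 control libraries, and groups were taken from the genotype labels (a description field of bKO replicates 2 and 3 reads Ythdc2 and Ythdc3). Per the design text, the authors aligned reads to GRCm38 with HISAT2 2.0.5 and counted them with featureCounts 1.5.0-p3. DESeq2 1.20.0 is named in the submitters' processing notes with no role. The sources used here name neither strand setting nor annotation release. The deposited values are FPKM, made by the authors. Times gene length and 1 factor per library they gave whole reads within 0.01 for 100% of values, so depth is known, and the factors equal median-of-ratios size factors (0.923 to 1.10). 0 columns belonged to other samples. The planned test for FPKM, limma 3.58.1 in R 4.3.3, was fitted with a mean-variance trend to genes with at least 0.5 FPKM in at least 3 libraries, with Benjamini-Hochberg adjustment. Single values were compared by a two-sided exact permutation test. No library repeated another of its group, the chi-square over its degrees of freedom being 3.87 to 6.05.

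The members and lists were chosen with earlier results of these data known. Named genes were the 9 members, Ythdc1, called list members and the 3 genes nearest in pattern to Gcg, Sst, Ppy and Pyy. Other genes named (Rbp4, Ffar4, Ghsr, Gcgr, Pcsk2, Irx3, Meis2 and neighbouring genes) were chosen after their values were seen. Some genes of the lists are counted but not reported by name here. Positions of all 9 genes equalled those of GENCODE vM21. Alternatives were scaling by library totals, with and without hormone and acinar genes, pseudocounts of 0.1 and 0.5, no filter, a mean FPKM of at least 1, voom on recovered reads, a replicate block and leaving out each library. Exact tests used scipy 1.17.1 under Python 3.11.15.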

Additional observations from a re-analysis of the deposited data

How the results depend on the processing

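Over all genes the number called was 3192, of which 44.1% were higher in bKO. It was 4438 (83.4% higher) with libraries scaled by their total, 3100 (58.8% higher) when hormone and acinar genes were left out of the total, 4358 with voom on the recovered reads, 2429 with no filter and 1904 to 2783 without 1 library each. Of the 9 genes, 3 were called, against 6 with total scaling, 5 with voom, 1 with no filter and 2 to 4 without 1 library each. The genes of all lists called numbered 40 (47.5% higher), against 46 (71.7% higher) with total scaling, 41 (58.5% higher) with totals without hormone and acinar genes, 25 with no filter and 25 to 38 without 1 library each.

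Gcg was at -0.09 in log2(FPKM + 1), at 0.090 with total scaling and at -0.14 to 0.0036 without 1 library each. Its share of reads differed by 0.167 percentage points, bKO minus control, and by -0.0792 with insulin reads left out. Pou3f4 was at -0.018 to 0.24 without 1 library each. Of genes near Gcg in pattern, total scaling put Trmt10c at 0.056, Pcdhga9 at 0.037 and Cacng4 at 0.10, and totals without hormone and acinar genes put Cacng4 at 0.011. Without 1 library each Pcdhga9 was at -0.11 to 0.060 and Cacng4 at -0.090 to 0.039. Ppy lost its call with no filter (1.11). Irx2 lost its call with no filter (0.38) and without 4 single libraries, with differences of 0.31 to 0.47 without 1 library each. Calls were gained by Sst with total scaling (0.33) and voom (0.16) and by Ghrl with total scaling (0.51). Hhex gained a call with total scaling (0.49), with totals without hormone and acinar genes (0.39), with a mean FPKM filter (0.33) and with voom (0.37), and stood at 0.25 to 0.42 without 1 library each. The cause of these changes was not tested.

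Replicate numbers gave no sign of pairing: deviations of same-numbered libraries correlated at 0.017, -0.042 and -0.11 over 7412 genes. Not every library correlated best with its own number. These correlations cannot exclude a pairing of the samples, since deviations from a group mean are tied to each other. With the replicate block 2077 genes, 26 list genes and 3 of the 9 genes were called, Irx2 (0.38) was not and Hhex (0.33) was. The hormone ratios, taken within a library, cannot move with the scaling, the filter or the fit. Only leaving out a library could change them, and they kept their direction there. Where the groups did not overlap this was bound to be so, since no single library could reverse the direction. For Ghrl and Pou3f4, with 29 to 92 reads a library, depth limits the comparison.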
